A study of Mus musculus with 4 samples.

Results

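The genes followed here are the Fc receptor genes of the macrophage and their shared adaptor, 6 genes named by symbol (Fcgr1, Fcgr3, Fcgr4, Fcgr2b, Fcer1g and Fcgrt) of 16739 genes with a read in at least 1 library. They were matched to the deposited tables by Entrez identifier, all 6 were listed in all 4 libraries, and all 6 were among the 11302 genes that passed the filter on low counts. RNA-seq was performed on tumor-associated macrophages (TAMs) carrying CD45, CD11b and F4/80, obtained by cell sorting from subcutaneous B16-F10 melanomas, a mouse melanoma line, 16 days after injection into C57BL/6 mice of 6 to 8 weeks of age. The 2 WT libraries were compared with 2 libraries labelled Trim24-deficient (genotype label Trim24-/-), to ask how loss of Trim24 in myeloid cells alters TAM gene expression. According to the study's methods these mice were Trim24 flox/flox LysM-Cre, so deletion depended on Cre from the lysozyme M locus, which is active in several myeloid cell types, and WT littermates served as controls. No source used here says whether the WT mice carried the floxed allele or Cre, or whether each library came from a separate mouse, so p-values measure the spread between these libraries.

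Fc gamma receptors bind the constant part of IgG and let a macrophage respond to antibody-coated targets. The activating receptors FcγRI (Fcgr1, CD64), FcγRIII (Fcgr3, CD16) and FcγRIV (Fcgr4) have no strong signalling motif of their own in the mouse and depend on the FcR γ-chain (Fcer1g), whose ITAM recruits the kinase Syk after phosphorylation by Src family kinases. FcγRIIB (Fcgr2b, CD32) carries an ITIM that recruits the phosphatase SHIP-1 (Inpp5d) and opposes these signals, so the balance of activating and inhibitory receptors sets how strongly a cell answers an immune complex. FcRn (Fcgrt) is a different kind of molecule, an MHC class I-like chain that pairs with B2m and returns endocytosed IgG from acidic endosomes to the surface.

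The libraries held between 4476122 and 5172407 expected counts, so that 3 counts corresponded to 0.580 to 0.670 CPM before TMM scaling, by counting error only. In CPM (counts scaled to library size after TMM normalization), Trim24 was at 5.82 and 2.12 in the WT libraries and at 3.43 and 0.411 for libraries labelled Trim24-deficient. These groups overlapped, so the label is written out in full throughout. Xist, the X-linked RNA of female cells, measured 10.9 and 6.51 CPM for WT against 437 and 256 CPM for libraries labelled Trim24-deficient, and Y-linked Ddx3y ran the opposite way, with 73.6 and 102 CPM against 0.426 and 0.411 CPM. Genotype and sex therefore cannot be told apart in the comparisons made here. The genes of the sort, Ptprc (CD45), Itgam (CD11b) and Adgre1 (F4/80), were abundant in all 4 libraries. They summed to 2313 and 2157 CPM for WT against 3214 and 2619 CPM under the other label. Of the sort genes, 3 of 3 were higher in both libraries of that label, as were 4 of the 6 Fc receptor genes and 21.4% of all tested genes. The sort genes had a median log2 fold change of 0.35, with Itgam at 0.65 (edgeR quasi-likelihood test, adjusted p = 0.408). The 8 macrophage markers, led by C1qb and Lyz2 with log2 fold changes of 0.27 and 0.52, summed to 17494 and 14251 CPM for WT against 19268 and 19273 CPM under the other label. These sums did not overlap, and 0 of the 8 markers were called. The log2 fold change was above 0 for 8 of 8 markers (median 0.12), for 6 of the 6 Fc receptor genes and for 49.4% of all tested genes. The part of these markers in the Fc receptor values was not tested. In bulk RNA of this kind, fewer cells of a type and less RNA per cell cannot be told apart.

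Of the 6 genes, 4 lie within 273.8 kb of chromosome 1 (GRCm38.p6, RefSeq). Fcgr2b lies at chr1:170960558-170976071 on the minus strand, Fcgr4 at chr1:171018926-171029761 on the plus strand, Fcgr3 at chr1:171051169-171065915 on the minus strand, and Fcer1g at chr1:171229572-171234349 on the minus strand. Fcgr1 is at chr3:96282909-96293969 and Fcgrt at chr7:45092993-45103822, both on the minus strand. All 6 are protein-coding genes. In the GENCODE annotation, Fcgr2b was the only member whose exons overlapped those of another gene, the antisense transcript Gm38204, and since strand use in counting is not given in the sources used here, reads of the pair cannot be told apart.

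The stretches just upstream of the RefSeq starts of the activating receptor genes are shown because these genes did not follow a common pattern over the libraries. They are read 5′ to 3′ on the strand of the gene, with any base in an annotated exon left out, and capitals mark TTCNNNGAA (the GAS type of STAT site) and GAGGAA (a core of the site of the myeloid factor PU.1, here on the opposite strand as TTCCTC). The stretches are chr3:96293970-96294219 for Fcgr1, chr1:171059404-171059626 for Fcgr3 and chr1:171018676-171018919 for Fcgr4. The start used for Fcgr3 lies inside the full span of the gene, so its stretch precedes an internal start.
Fcgr1: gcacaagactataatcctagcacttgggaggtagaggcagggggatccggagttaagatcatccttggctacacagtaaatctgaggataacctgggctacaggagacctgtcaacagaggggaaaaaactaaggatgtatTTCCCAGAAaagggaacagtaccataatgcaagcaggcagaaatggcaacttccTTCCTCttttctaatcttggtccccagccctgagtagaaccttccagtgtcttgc
Fcgr3: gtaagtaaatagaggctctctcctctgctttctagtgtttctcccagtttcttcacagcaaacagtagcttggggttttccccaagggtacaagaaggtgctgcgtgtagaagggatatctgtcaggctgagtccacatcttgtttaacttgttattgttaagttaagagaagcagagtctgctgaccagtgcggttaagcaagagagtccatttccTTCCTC
Fcgr4: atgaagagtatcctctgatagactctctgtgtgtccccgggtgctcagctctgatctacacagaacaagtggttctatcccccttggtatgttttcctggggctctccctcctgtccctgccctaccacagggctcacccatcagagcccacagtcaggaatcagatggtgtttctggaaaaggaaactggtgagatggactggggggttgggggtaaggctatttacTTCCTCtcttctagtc
Over the 250 bases upstream, GAGGAA was present in 3 of the 6 members on either strand, and these were the 3 activating receptors, whereas 23.1% of 27025 promoters of that length hold it. This search took in bases of annotated exons. For Fcgr2b the longest stretch free of them was 47 bases, against 223 to 250 for the activating receptors. The Fcgr2b window is therefore not comparable with theirs. TTCNNNGAA was present in 1 of 6, Fcgr1, beginning 109 bases before the start, and in 7.18% of all promoters. The wider spacing that Stat6 prefers, with 4 bases between TTC and GAA, was in 0 of 6 and in 5.86% of all promoters. No matches overlapped each other. A match is a description of the letters and not a site of binding.

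Compared per transcript length, the adaptor far exceeded the receptors. Fcer1g was at 3575 and 3433 FPKM in the WT libraries and at 4161 and 4325 FPKM in the libraries labelled Trim24-deficient, which ranked it between 10 and 12 among the genes of each library. Fcgr3 was the most abundant receptor, from 819 to 1609 FPKM, and lay below every Fcer1g value and above Fcgr2b, from 368 to 813 FPKM, in 4 of 4 libraries. Fcgr2b and Fcgr4 (221 to 839 FPKM) could not be ordered, as each was higher in 2 of 4 libraries. Fcgr1, from 195 to 282 FPKM, lay below Fcgr4 in 4 of 4 libraries, but the ranges overlapped. Fcgrt, from 125 to 286 FPKM, was lower than Fcgr1 in 3 of 4 libraries, with the library labelled Trim24-deficient replicate 2 as the exception. Together the 6 genes took 0.543% and 0.512% of the counts of the WT libraries and 0.639% and 0.784% of those labelled Trim24-deficient.

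**Figure D1:**
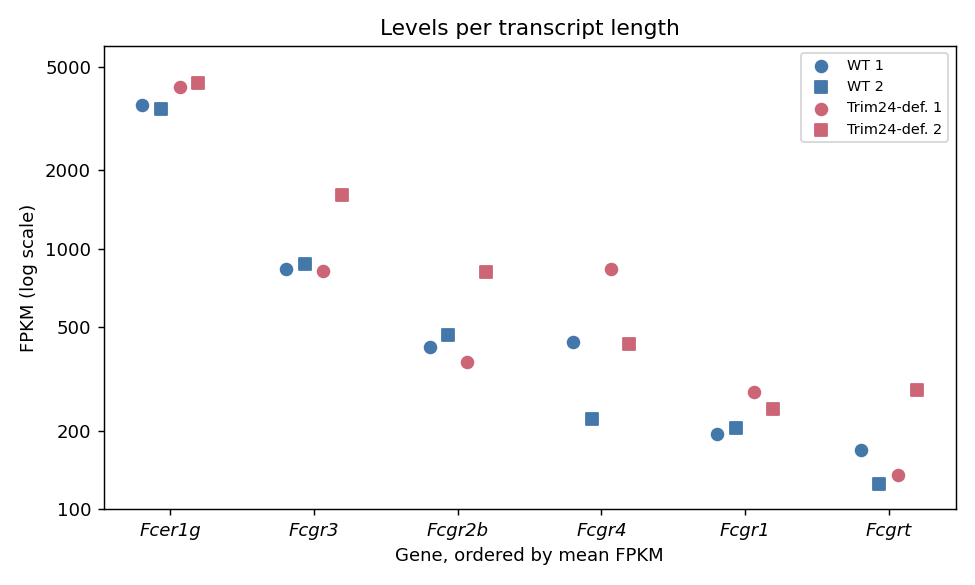
FPKM of each gene on a log axis, with 1 point per library, genes ordered by their mean over the 4 libraries. Fcer1g stands above every receptor, and the library labelled Trim24-deficient replicate 2 is the highest for Fcgr3, Fcgr2b and Fcgrt but not for Fcgr4 or Fcgr1.

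Between genotype labels, no member passed the test used for calls (FDR under 0.05 together with more than 1.5-fold change, edgeR quasi-likelihood test over all tested genes). That test called 0.372% of all tested genes, 0.292% as higher and 0.0796% as lower. All 6 fitted fold changes were above 0, where 49.4% of all tested genes were above 0, and both libraries labelled Trim24-deficient lay above both WT libraries in CPM for 4 of 6 members (Fcgr1, Fcgr3, Fcgr4 and Fcer1g), where this held for 21.4% of tested genes, the reverse order for 23%, and no overlap in either direction for 44.5%. For Fcgr3 and Fcgr4 the separation was narrow and did not hold in FPKM. Without adjustment, p was under 0.05 for 2 of 6 (Fcgr1 and Fcgr4), against 6.58% of tested genes with a higher value and 5.62% with a lower one. The same scaling left the median log2 fold change of all tested genes at -0.01. Without TMM, on library totals, that median moved to -0.15, and on log2(FPKM + 1) to -0.13. The 6 members stayed above 0 under both.

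Fcer1g, the adaptor, measured 2298 and 2114 CPM for WT against 2879 and 3037 CPM for libraries labelled Trim24-deficient. The groups did not overlap in CPM or in FPKM, and the values within a group lay close together, within 1.09-fold in WT and 1.05-fold in the other group. The log2 fold change was 0.42 (95% interval -0.07 to 0.92, edgeR quasi-likelihood test, adjusted p = 0.465), and the exact two-sided permutation test gave p = 0.33, the smallest p that 2 libraries against 2 allow.

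The 3 activating receptors each behaved differently. Fcgr1, the high-affinity receptor, measured 495 and 498 CPM for WT against 771 and 674 CPM for libraries labelled Trim24-deficient. The libraries of a group agreed closely and the groups did not overlap on either scale, with a log2 fold change of 0.54 (standard error 0.20, 95% interval 0.08 to 1.0, unadjusted p = 0.0250, edgeR quasi-likelihood test, adjusted p = 0.327). With each library left out in turn its log2 fold change stayed between 0.45 and 0.64. Fcgr1 was thus 1.46-fold higher in the fit, a difference that did not pass adjustment over all genes.

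Fcgr4, a receptor for IgG2a and IgG2b, had the largest fold change of the members and also a wide spread in both groups. It measured 527 and 256 CPM for WT against 1090 and 568 CPM for libraries labelled Trim24-deficient. Replicate 1 exceeded replicate 2 by 2.06-fold in WT and by 1.92-fold in the other group, so that WT replicate 1 nearly reached the lower of the libraries labelled Trim24-deficient. In FPKM the groups overlapped, with 437 in WT replicate 1 and 431 in the library labelled Trim24-deficient replicate 2. The log2 fold change was 1.08 (standard error 0.38, 95% interval 0.23 to 1.94, unadjusted p = 0.0185, edgeR quasi-likelihood test, adjusted p = 0.294). It was 1.71 without WT replicate 1, 0.65 without WT replicate 2, 0.54 without the library labelled Trim24-deficient replicate 1 and 1.48 without the library labelled Trim24-deficient replicate 2. In the last of these fits Fcgr4 was called (edgeR quasi-likelihood test, adjusted p = 0.000860), as were 3.74% of tested genes in the higher direction. With the replicate number as a block, a fit that called 3.76% of tested genes higher, Fcgr4 was called too.

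Fcgr3, the receptor of low affinity that is also found on NK cells and neutrophils, measured 1093 and 1091 CPM for WT against 1153 and 2301 CPM for libraries labelled Trim24-deficient. Of these, 3 libraries were alike and the fourth, labelled Trim24-deficient replicate 2, stood 2.0-fold above the other of its group. The log2 fold change was 0.66 (95% interval -0.03 to 1.36, edgeR quasi-likelihood test, adjusted p = 0.422). It fell to 0.08 without that library, and it was 1.08 and called without the library labelled Trim24-deficient replicate 1 (edgeR quasi-likelihood test, adjusted p = 0.00935), a fit that called 2.18% of tested genes higher. Both fits leave a single library under that label, whose spread is taken to be like that of the WT libraries.

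Fcgr2b, the inhibitory receptor, varied over the libraries much as Fcgr3 did. It measured 579 and 616 CPM for WT against 550 and 1229 CPM for libraries labelled Trim24-deficient. The groups overlapped, since 1 library labelled Trim24-deficient was the lowest of all 4 and the other the highest, 2.23-fold apart (p = 1 in the exact permutation test, two-sided). The log2 fold change was 0.57 (95% interval -0.17 to 1.32, edgeR quasi-likelihood test, adjusted p = 0.515). Without the library labelled Trim24-deficient replicate 2 it turned to -0.12. Without replicate 1 of that label it was 1.05, and Fcgr2b was called in that fit, as Fcgr3 was. Each of these fits leaves a single library under that label.

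**Figure D2:**
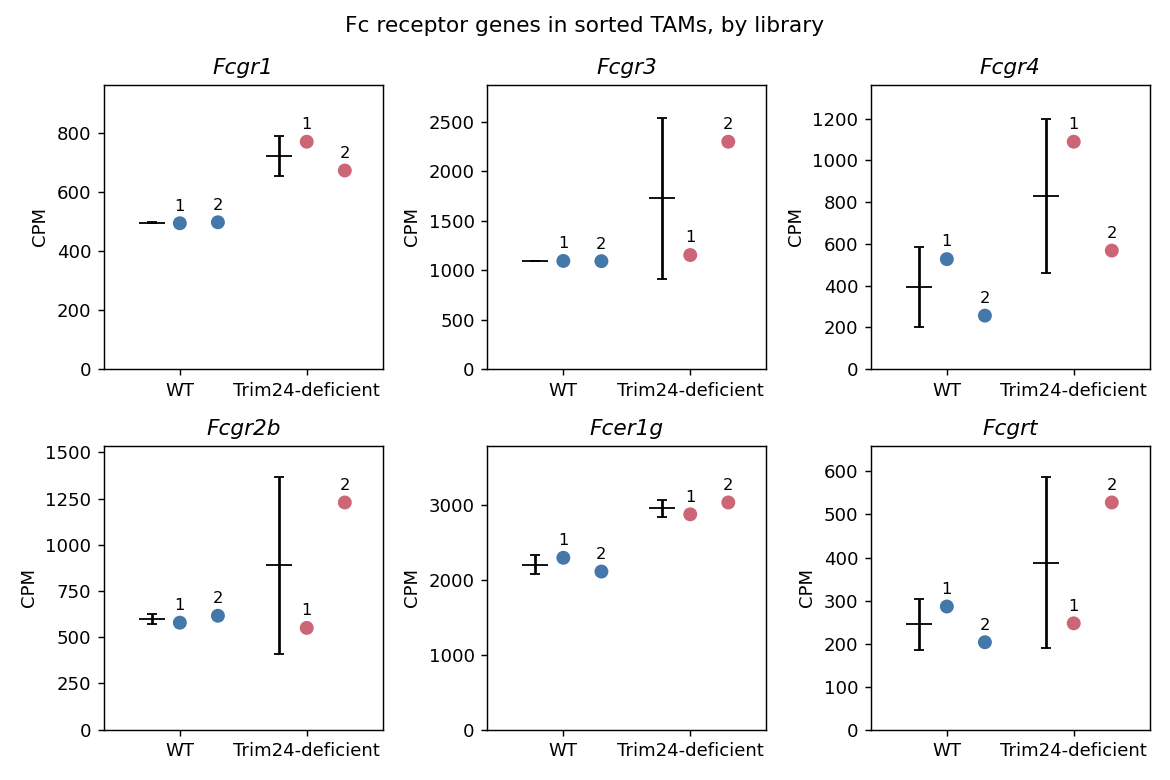
CPM of each gene in each library, with the replicate number above its point and the mean and SD (n = 2) to the left of each group. Fcgr1 and Fcer1g lie close together within each group, whereas Fcgr3, Fcgr2b and Fcgrt are highest in the library labelled Trim24-deficient replicate 2 and Fcgr4 is the higher of each group in replicate 1.

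The Fcgr2b and Fcgr3 values rest in part on shared reads. The extracellular parts of these receptors are similar in sequence. Expected counts of both genes were fractional in all 4 libraries, while those of the other 4 members were whole numbers in every library. The sum of the 2 genes was a whole number, to the 2 decimals deposited, in every library: 8281 and 8195 in the WT libraries, and 7999 and 17179 for libraries labelled Trim24-deficient. Counted as a single feature they had a log2 fold change of 0.63 (edgeR quasi-likelihood test, adjusted p = 0.458). The ratio of Fcgr3 to Fcgr2b in FPKM was 2.0 and 1.87 in the WT libraries and 2.23 and 1.98 in those labelled Trim24-deficient, a narrower range than that of either gene. How far the shared reads fix this ratio was not tested.

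Fcgrt, encoding FcRn, measured 286 and 203 CPM for WT against 247 and 528 CPM for libraries labelled Trim24-deficient. The groups overlapped, and replicate 2 of that label again stood apart, 2.14-fold above replicate 1. The log2 fold change was 0.66 (95% interval -0.09 to 1.42, edgeR quasi-likelihood test, adjusted p = 0.454). It was 0.02 without that library and 1.11 without replicate 1 of that label, fits that each leave a single library under the label. In the latter fit Fcgrt was called, as Fcgr3 and Fcgr2b were. B2m, the light chain of FcRn and of MHC class I, did not share this profile. It measured 5989 and 4614 CPM for WT against 9176 and 6231 CPM for libraries labelled Trim24-deficient, and the ratio of B2m to Fcgrt in FPKM ran from 24.4 in replicate 2 of that label to 76.9 in its replicate 1, with 43.3 and 47.0 in WT.

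**Figure D3:**
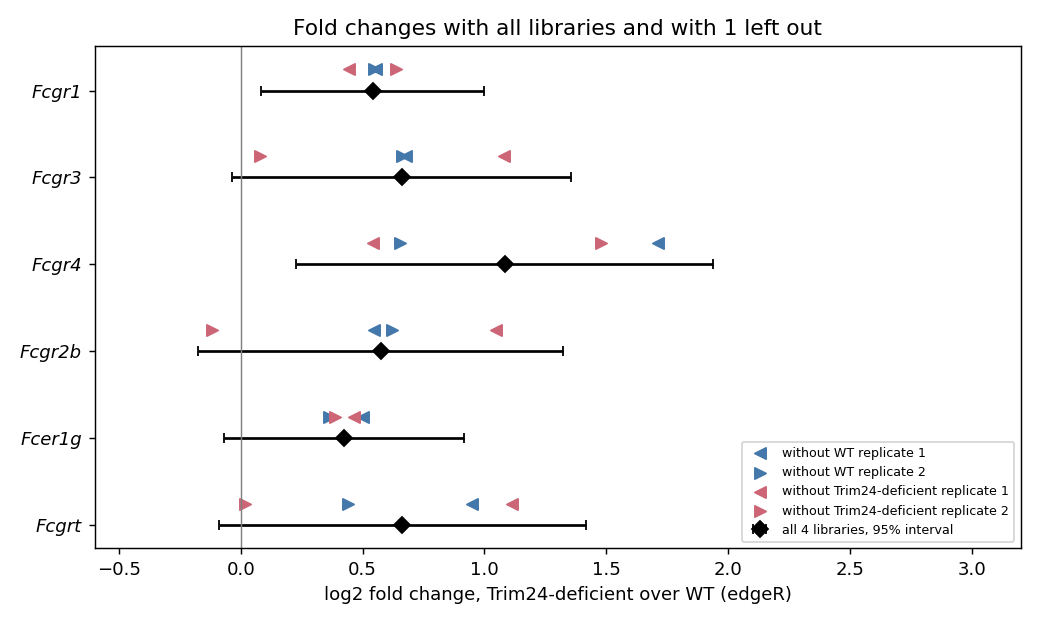
Log2 fold change of each gene, libraries labelled Trim24-deficient over WT, as fitted by edgeR. Diamonds with bars are the fit to all 4 libraries with its 95% interval, and triangles are fits with 1 library left out. Fcgr1 and Fcer1g hold their place, while Fcgr3, Fcgr2b and Fcgrt come to about 0 without replicate 2 of the libraries labelled Trim24-deficient.

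To compare activating with inhibitory receptors, the summed FPKM of Fcgr1, Fcgr3 and Fcgr4 was divided by that of Fcgr2b in each library. Fcgr3 and Fcgr2b share reads, so the division of these reads by RSEM enters both sides of the ratio and the shares below. Its part was not tested. The ratio was 3.51 and 2.79 in the WT libraries and 5.27 and 2.81 for libraries labelled Trim24-deficient. The library labelled Trim24-deficient replicate 1 had the highest ratio, and replicate 2 of that label lay between the WT libraries. The difference of the log2 ratios was 0.30 and was smaller than the spread within the label (1.94 ± 0.64 against 1.65 ± 0.23 in WT, SD, n = 2 each, exact two-sided permutation test, p = 0.667). Without the library labelled Trim24-deficient replicate 1 the difference turned to -0.16, and without replicate 2 of that label it was 0.75. The high ratio of that replicate 1 came with Fcgr4, whose FPKM was 2.28 times that of Fcgr2b there, against 1.04 and 0.476 times in WT replicates 1 and 2 and 0.530 times in the other library of the label. In shares of the FPKM of the 4 receptors, Fcgr4 took 23.2% and 12.6% in WT and 36.4% and 13.9% under the other label, while Fcgr2b took 22.2% and 26.4% in WT and 15.9% and 26.3% under the other label.

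The level of the adaptor was also set against that of the receptors that need it. Fcer1g FPKM was 2.44 and 2.65 times the summed FPKM of the activating receptors in the WT libraries, and 2.14 and 1.89 times in the libraries labelled Trim24-deficient. Both values of the latter lay below both WT values, with a difference of -0.33 in the log2 ratio (exact two-sided permutation test, p = 0.33, the smallest possible with 2 against 2). With each library left out the difference ran from -0.42 to -0.24. Its sign there was fixed in advance by the separation of the 4 values. Against Tyrobp, which encodes the sister adaptor DAP12, Fcer1g FPKM was 1.79 and 2.25 times as high in WT and 1.88 and 1.73 times as high in the libraries labelled Trim24-deficient, and these ranges overlapped.

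**Figure D4:**
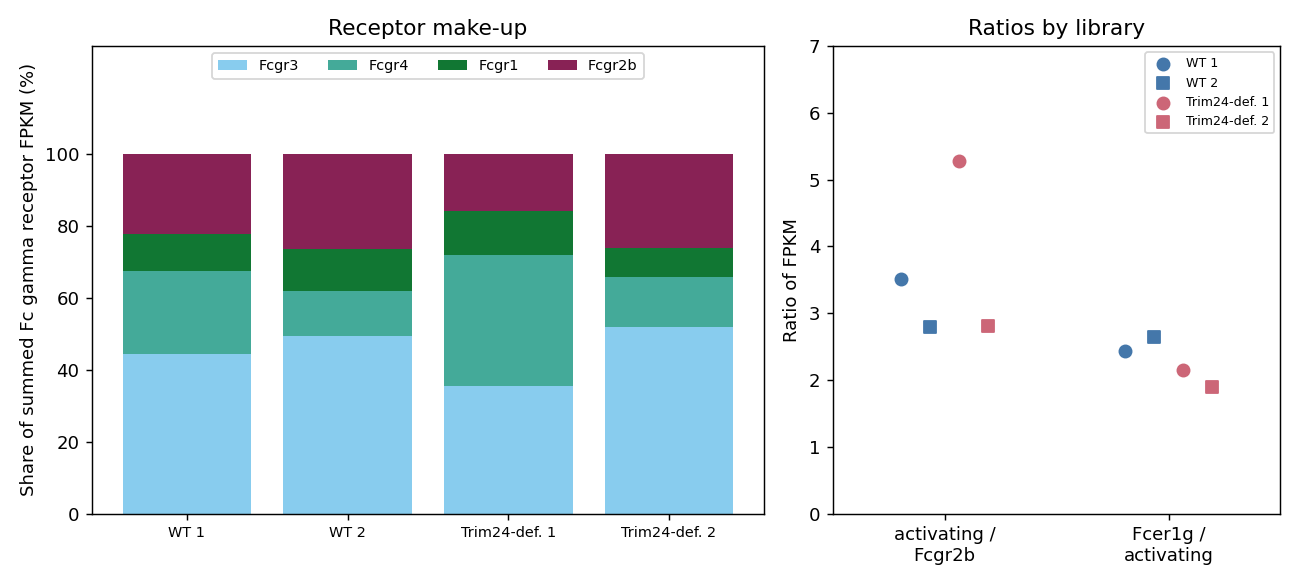
Left, share in percent of the summed FPKM of the 4 Fc gamma receptors taken by each receptor in each library. Right, ratio of the summed activating receptors to Fcgr2b and of Fcer1g to the summed activating receptors, with 1 point per library. The division of shared reads between Fcgr3 and Fcgr2b enters both panels. The activating to inhibitory ratio of the library labelled Trim24-deficient replicate 1 is 5.27, while that of replicate 2, 2.81, lies between the WT values of 3.51 and 2.79.

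The genes whose profile over the 4 libraries lay nearest to each member were found among 9113 abundant genes by the Euclidean distance between centred log2 CPM values. Nearest to Fcgr1 were Ptpro (distance 0.04) and H2-M3 (0.06), and nearest to Fcer1g were Shisa5 (0.03) and Atox1 (0.03). Nearest to Fcgr4 were Ly6a (0.07), with 916 and 464 CPM for WT against 1989 and 989 CPM under the other label, and Gbp6 (0.09), a guanylate-binding protein gene. Gas7 (0.12) and Fcgr3 itself (0.18) were nearest to Fcgr2b, Mvd (0.05) and Jaml (0.09) to Fcgr3, and Clec10a (0.09) to Fcgrt. Fcgr3 and Fcgr2b share reads, and the part of these reads in their distance was not tested. Among the receptors, Fcgr4 lay 1.07 from Fcgr1, with 704 genes nearer, 1.64 from Fcgr3, with 5925 nearer, and 1.80 from Fcgr2b, with 7288 nearer. Counted from Fcgr1 instead, 7896 of the 9113 genes were nearer than Fcgr4. With 4 libraries many genes share any profile, and these distances are descriptions.

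Among genes that carry the signal from the ITAM, 15 of 15 were tested and 1 was called, Fgr, against 0.372% of all tested genes. Of the 15, 10 were above 0, against 49.4% of all tested genes, and the median log2 fold change was 0.13. Fgr, a Src family kinase of myeloid cells, measured 48.3 and 49.0 CPM for WT against 114 and 109 CPM for libraries labelled Trim24-deficient. Its values were nearly equal within each group, and it rose by a log2 fold change of 1.19 (standard error 0.18, edgeR quasi-likelihood test, adjusted p = 0.0331). The call was lost without WT replicate 1 (1.2, adjusted p = 0.123) and without WT replicate 2 (1.2, adjusted p = 0.267, edgeR quasi-likelihood test for both), and with library totals in place of TMM (1.04, edgeR quasi-likelihood test, adjusted p = 0.0709). The Src family kinase gene Lyn, the most abundant of the list, had a log2 fold change of 0.13 (edgeR quasi-likelihood test, adjusted p = 0.861), and Syk itself 0.20 (edgeR quasi-likelihood test, adjusted p = 0.723).

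Of the 9 genes that act with the ITIM, 9 were tested and 0 were called, with a median log2 fold change of -0.06. An unadjusted p under 0.05 in edgeR's quasi-likelihood test was found for 4, with 3 higher and 1 lower. Over all tested genes such a p was found for 6.58% as higher and 5.62% as lower, the background for each list below. Ptpn6, encoding the phosphatase SHP-1, measured 707 and 550 CPM for WT against 1055 and 813 CPM for libraries labelled Trim24-deficient (log2 fold change 0.57, edgeR quasi-likelihood test, adjusted p = 0.373). The docking proteins Dok2 and Dok1 had log2 fold changes of 0.77 and 0.51, and Pag1, which holds the inhibitory kinase Csk at the membrane, one of -0.63 (adjusted p = 0.220, 0.346 and 0.389 in that order, from edgeR's quasi-likelihood test). Inpp5d, the main effector of Fcgr2b, measured 320 and 321 CPM for WT against 326 and 289 CPM for libraries labelled Trim24-deficient, which overlapped. Of 10 genes of the actin machinery of the phagocytic cup, 10 were tested and 0 were called, with 2 at an unadjusted p under 0.05 (edgeR) and a median of -0.05. The motor gene Myo1f had a log2 fold change of 0.49 and Wasf2, an activator of Arp2/3, one of -0.59, while the most abundant, Cdc42 and Coro1a, varied little, with Cdc42 between 1080 and 1282 CPM and Coro1a between 893 and 927 CPM in all 4 libraries.

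Among partner chains, B2m, Tyrobp, Hcst and Cd247 were tested and 0 of 4 were called, with 2 at an unadjusted p under 0.05 (edgeR) and a median log2 fold change of 0.61. Tyrobp measured 1089 and 798 CPM for WT against 1304 and 1490 CPM for libraries labelled Trim24-deficient (0.57, edgeR quasi-likelihood test, adjusted p = 0.377), and Hcst, encoding the adaptor DAP10, had a log2 fold change of 0.65. Of 12 other immunoglobulin receptor genes, 5 were tested and 0 were called, with 2 at an unadjusted p under 0.05 (edgeR). Fcrls, an Fc receptor-like gene of macrophages, varied most, with 339 and 735 CPM for WT against 23.4 and 268 CPM under the other label, both below either WT value (log2 fold change -1.88, edgeR quasi-likelihood test, adjusted p = 0.395). Fcrlb was low, at 3.03 and 4.79 CPM for WT against 6.60 and 9.45 CPM under the other label. It had a log2 fold change of 1.04 (edgeR quasi-likelihood test, adjusted p = 0.389), and Fcrl5 one of 0.51 with overlapping groups. Of the high-affinity IgE receptor, which shares the Fcer1g chain, the other chains were near 0, with Fcer1a at no more than 0.208 CPM in any library and Ms4a2 listed in none.

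Other cells that carry Fc receptors were looked for by their markers. B cells, for which Fcgr2b is the main Fc gamma receptor, were represented by 5 of 8 markers, as Pax5, Ighm and Igkc were listed in no library. The 5 markers, mostly Cd79b and next Jchain (log2 fold changes 0.11 and -0.53), summed to 61.0 and 49.2 CPM in WT and to 61.3 and 51.6 CPM for libraries labelled Trim24-deficient. The 8 neutrophil markers summed to 177 and 206 CPM in WT and to 271 and 410 CPM for libraries labelled Trim24-deficient. The sum was highest in the library where Fcgr3, Fcgr2b and Fcgrt were highest, as were S100a8, S100a9 and Retnlg. Csf3r and Ly6g were highest in the other library of that label, and Cxcr2 in WT replicate 2. Ngp and Camp were at no more than 0.616 CPM in any library. Of the 8, 4 were tested and 0 were called, with 3 higher at an unadjusted p under 0.05 (edgeR), against 6.58% of tested genes. These were S100a8 at a log2 fold change of 2.21, S100a9 at 2.0 and Csf3r at 0.83. Cxcr2 had -0.30, and Ly6g, which defines mature neutrophils, was at 0 for WT and at 2.0 and 0.918 CPM under the other label. Of 8 NK and T cell markers, the 7 that were listed summed to 77.1 and 51.1 CPM in WT and to 197 and 63.3 CPM for libraries labelled Trim24-deficient, highest in the library where Fcgr4 was highest. Nkg7 had a log2 fold change of 1.23 and Cd8a one of 0.85, both with overlapping groups (edgeR quasi-likelihood test, adjusted p = 0.305 and 0.499). The NK marker Ncr1 was at no more than 3.83 CPM. Of the 5 mast cell and basophil markers 0 passed the filter on low counts, summing to at most 2.42 CPM, led by Kit. The 6 melanoma markers summed to 810 and 770 CPM in WT and to 607 and 803 CPM for libraries labelled Trim24-deficient. Of these 6, 0 were called, and the median log2 fold change was -0.54. Both libraries of that label lay below both WT libraries for 4 of the 6, against 23% of all tested genes. Tyr, the most abundant and the only marker above 0, had 0.06, and Tyrp1 had -0.65 (edgeR quasi-likelihood test, adjusted p = 0.281). The part of these cells in the Fc receptor values was not tested.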

How the data were processed

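Total RNA of sorted TAMs was sequenced, and reads were mapped to GRCm38/mm10 with Bowtie and quantified by RSEM (versions not given in the sources used here). The authors deposited, for each library, unnormalized expected counts, from 76.6% to 77.7% of them whole numbers, and an FPKM, scaled to transcript length and library total. RSEM divides a read shared by similar genes between them, which bears on Fcgr2b and Fcgr3. Symbols and positions were taken from RefSeq GRCm38.p6 by Entrez identifier (16698 of 16739 genes matched), and all 6 members matched a RefSeq promoter window. Exon overlaps were read from GENCODE on the same build.

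Expected counts were rounded and tested with edgeR 4.0.16 in R 4.3.3 (filterByExpr, TMM factors of 0.943 to 1.08, glmQLFit and glmQLFTest on the genotype label, Benjamini-Hochberg adjustment over 11302 genes). Genes absent from a table were set to 0. Standard errors were derived from the fold change and its F statistic. Alternatives were DESeq2 1.42.0, limma 3.58.1 with pseudocounts of 1 or 0.1 added to FPKM before taking log2, other scalings and filters, the replicate number as a block, and each library left out. Scripts were tested on simulated data. Named genes are the 6 members, Trim24, Xist and Ddx3y as label checks, genes of fixed lists that were called, that had an unadjusted p under 0.05 without overlap, or that were among the 2 most abundant of a list, and the 2 nearest profiles (mean log2 CPM of at least 3). Syk, Inpp5d, Pax5, Ighm, Igkc, Ly6g, Retnlg, Ngp, Camp, Ncr1, Fcer1a and Ms4a2 were named after their values were seen. A few genes that this rule names are not reported here. The members and lists were chosen with earlier results of these data known.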

Additional observations from a re-analysis of the deposited data

How the results depend on the processing

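The number of called genes, 42 with all 4 libraries, was 634 with the replicate block, 156 by DESeq2, 23 by limma on log2(FPKM + 1), 20 on log2(FPKM + 0.1) and 0 on log2(FPKM + 1) without a filter, where 1636 genes had an unadjusted p under 0.05. With 1 library left out it ranged from 25, without WT replicate 2, to 652, when replicate 2 of the other label was dropped. It was 66 without WT replicate 1 and 405 without replicate 1 labelled Trim24-deficient. The cause was not tested.

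Over 60 values of the members under alternatives other than a left-out library, 60 log2 fold changes were above 0, and with 1 exception their calls did not change. The exception was Fcgr4 with the replicate block, 1.10 (edgeR quasi-likelihood test, adjusted p = 1.05e-05), a fit that took its spread wholly from all genes and called 3.76% of them higher. Replicate numbers pair the libraries in no label, and deviations of same-numbered libraries correlated at 0.165 across genes. With 1 library left out, log2 fold changes ranged from -0.12 to 1.05 for Fcgr2b, 0.080 to 1.08 for Fcgr3, 0.016 to 1.11 for Fcgrt, 0.54 to 1.71 for Fcgr4, 0.45 to 0.64 for Fcgr1 and 0.36 to 0.50 for Fcer1g, and the log2 activating to inhibitory ratio differed by -0.16 to 0.75. Fgr lost its call in 3 limma fits as well (0.997 to 1.04). A count of 3 sets a floor far below every member.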
